A study of Mus musculus with 56 samples.

Results

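The D-type cyclins Ccnd1, Ccnd2 and Ccnd3, the kinases Cdk4 and Cdk6 that they activate, and Rb1, the protein these kinases phosphorylate, were followed across 56 arrays of mouse oligonucleotides, each hybridized in 2 colors. They were chosen by gene symbol, as 6 of the 15063 genes with a probe of 1 symbol, and were measured by 7 of 16632 such probes. OV, a cell line from mouse ovarian surface epithelium, was hybridized against 3T3, a mouse fibroblast line, in 7 comparisons of 4 arrays each. Targets were amplified from 10 pg of total RNA by SMART or GA, amplified from 10 ng by SMART, GA, SM37 or IVTIII, or reverse transcribed without amplification from 100 μg. SMART and GA are PCR methods, SMART with a template-switching primer and GA after polyadenylation of the cDNA. SM37 is a modified SMART, and IVTIII is linear amplification by T7 polymerase in 3 rounds. By the methods, SMART and GA targets from more than 10 pg were diluted to the content of a single cell before the last PCR cycles. Their amounts thus name the RNA taken for reverse transcription. Technical replicas of OV RNA were also hybridized against each other on 21 arrays in 11 groups, with inputs of 10 pg, 100 pg, 1 ng and 10 ng for SMART and GA, OV targets against themselves on 3 arrays, and replicas of neural stem cells on 4. No treatment or engineered allele is named for either line, and growth conditions are not given in the sources used here. By the methods each line had 2 independent replicates per target, which nothing says came from separate cultures, so that p-values measure the spread between arrays and may be technical.

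As background, mitogens induce the D-type cyclins in early G1. A D-type cyclin with Cdk4 or Cdk6 phosphorylates Rb1, which then releases E2F transcription factors, and these switch on genes of DNA replication. The INK4 inhibitors, encoded by Cdkn2a to Cdkn2d, bind Cdk4 and Cdk6, while Cdkn1a encodes p21, an inhibitor of several cyclin-dependent kinases that also takes part in assembling cyclin D with its kinase. In ovary, Ccnd2 is known for its induction by follicle stimulating hormone in granulosa cells, a cell type other than surface epithelium.

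All values are log2 ratios on an array, turned to OV over 3T3 by the dye labels, so that a negative value means less signal in OV. Deposited ratios were read as Cy5 over Cy3, which is likely but not settled, since the study's text gives both directions. With that reading Cdkn2a, which established 3T3 fibroblasts commonly lack, had a mean of 1.58 ± 0.11 (SD, n = 4) in unamplified cDNA, and Xist had 3.21 ± 1.30. Of 10 markers of ovarian surface epithelium with a value on all 4 arrays, OV had more signal for 7 and less for 1, Krt18, by the call rule used for members. Of 7 fibroblast markers, 3 were called lower in OV and 1, Col1a1, higher. No leukocyte or endothelial marker with a value on all 4 arrays was called among the 4 tested, though a ratio cannot show that both lines lack them. With GA from 10 ng the leukocyte marker Cd68 was called higher in OV, at 0.97 ± 0.36. The GA arrays at 10 pg stood apart: across genes their ratios correlated with the unamplified mean at r of 0.002, 0.005, -0.131 and -0.148 on arrays 1 to 4, against 0.378 to 0.688 on the 20 arrays of the other amplified targets, and the mean of Xist was -0.10 ± 0.38. Whether their labels or dyes are the reason was not tested.

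Signal intensities were not used here, so depth was judged by the number of probes with a value. A member had a value on every array of only some comparisons. Ccnd2 was measured on 26 of the 28 arrays of OV against 3T3, Ccnd3 and Cdk4 on 23 each, Ccnd1 on 20, Rb1 on 13 and Cdk6 on 7. Ccnd1 and Cdk4 had no value on any IVTIII array, and Ccnd1 none on any SMART array at 10 pg, where 2303 to 5137 probes had a value, against 14198 to 18274 on unamplified arrays. Of both Ccnd2 probes, the one designed on the RefSeq transcript had a value on 1 of the 28 arrays, so that Ccnd2 is in effect the other probe, designed on a cDNA clone.

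Among these genes in unamplified cDNA, Ccnd1, the D-type cyclin best known for induction by growth factors, stood out. Its log2 ratios on arrays 1 to 4 were -1.73, -1.37, -1.95 and -1.82. All 4 arrays showed less Ccnd1 in OV, and the mean of -1.72 ± 0.25 (SD, n = 4) corresponds to a level 3.29-fold lower in OV than in 3T3. In bulk RNA, fewer cells that express a gene and less of its RNA per cell cannot be told apart. In limma's empirical Bayes fit over all genes it was called lower, at a log odds of differential expression (LOD) above 0, with an adjusted p of 1.66e-04. It was the only one called of 5 members with a value on all 4 arrays, beside 16.1% of all 10185 genes tested, and it was called without each array in turn.

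The other cyclins lay closer to 0 and on both sides of it. Ccnd2 had ratios of -0.41, -0.37, -0.14 and -0.30, with a mean of -0.31 ± 0.12 (SD, n = 4). All 4 were below 0. Ccnd3, the most widely expressed D-type cyclin, had 0.41, 0.20, 0.65 and 0.50, with a mean of 0.44 ± 0.19 (SD, n = 4). All 4 were above 0, so that Ccnd3 minus Ccnd1, taken within each array, was 2.14, 1.58, 2.59 and 2.33. Ccnd3 minus Ccnd2 was smaller and varied less, from 0.57 to 0.82.

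Neither kinase showed a ratio of one sign. Cdk4 had 0.16, -0.07, 0.17 and 0.00, a mean of 0.07 ± 0.12 (SD, n = 4; limma adjusted p = 0.459). Cdk6, the alternative kinase, had a value on arrays 1 and 2 alone, of -0.74 and 0.59, which oppose each other. Rb1 had -0.25, -0.19, -0.48 and -0.53, a mean of -0.36 ± 0.17 (SD, n = 4), with all 4 below 0. Ccnd2, Ccnd3 and Rb1 did not reach the LOD threshold, but their limma adjusted p of 0.0115, 6.85e-03 and 0.0114 were below 0.05, a threshold that 4 of the 5 members passed, beside 48.8% of all genes.

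**Figure D1:**
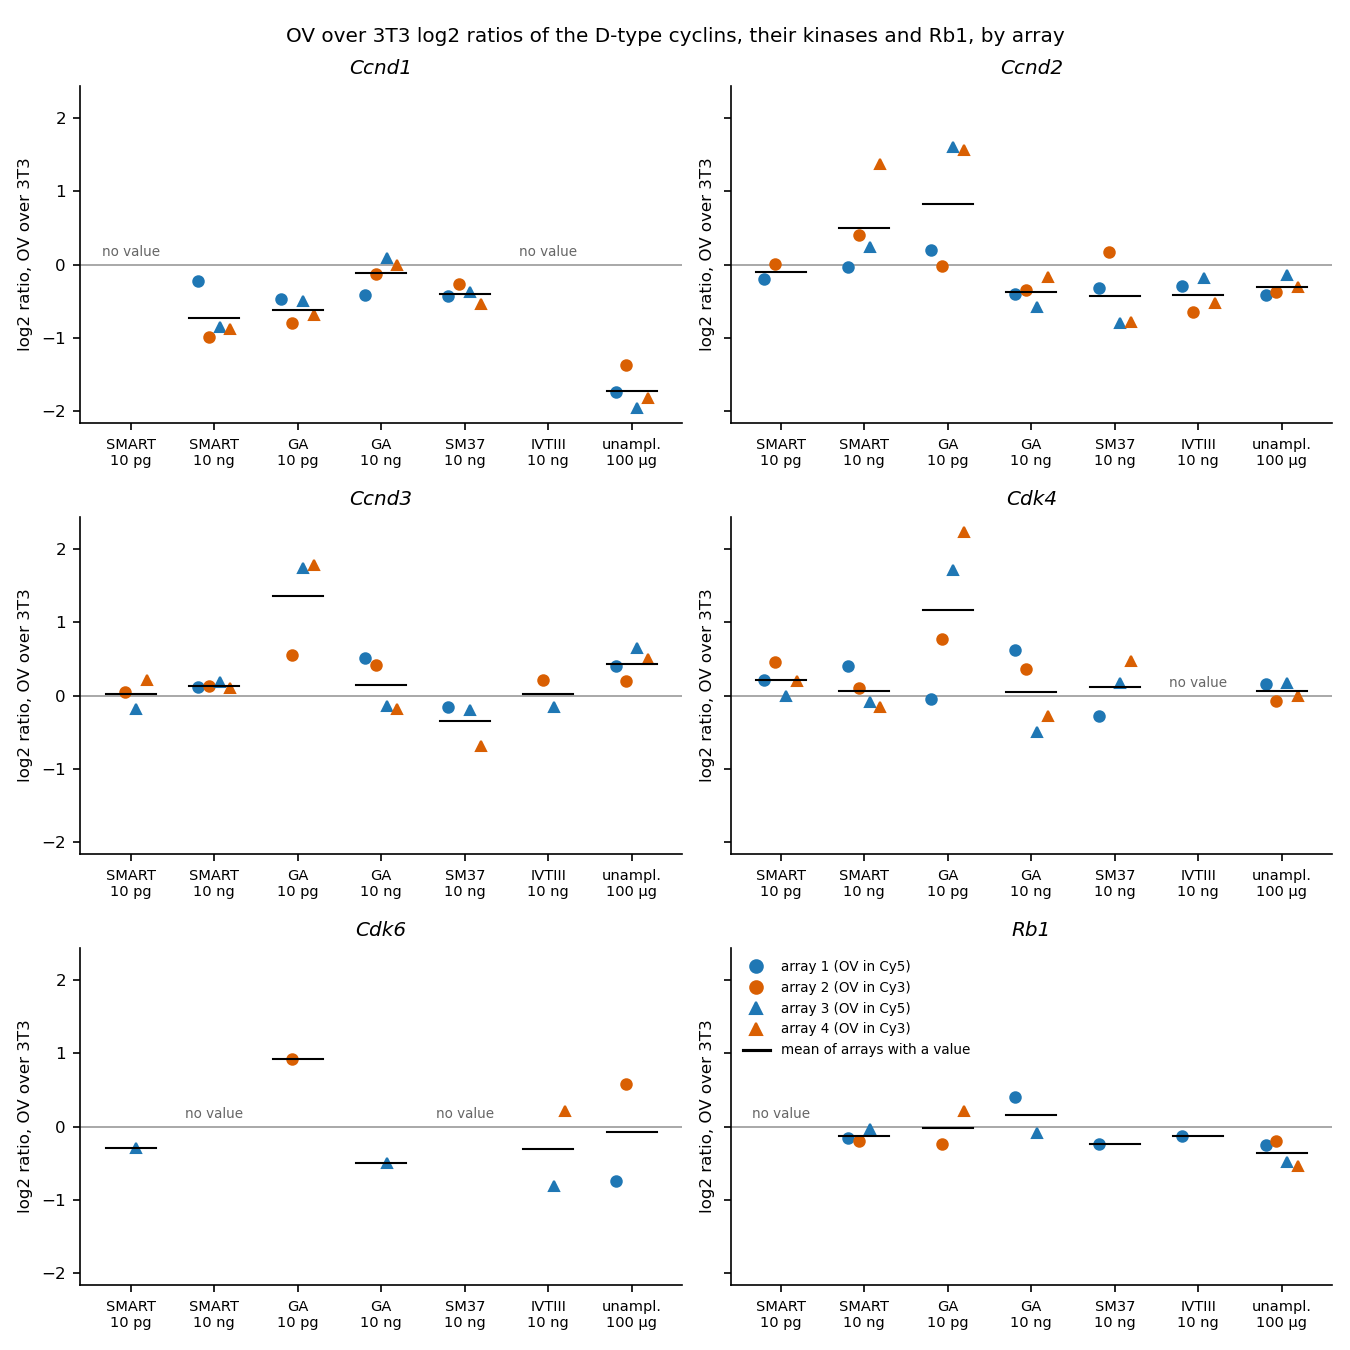
Log2 ratios of OV over 3T3 (vertical axis) for each of the 6 genes in the 7 comparisons (horizontal axis, amplified targets left of unamplified cDNA). Points are single arrays, circles arrays 1 and 2 and triangles arrays 3 and 4, colored by the dye that OV carried, and lines are means of the arrays with a value. Ccnd1 lay between -1.95 and -1.37 in unamplified cDNA and at -0.99 or higher on every amplified array with a value.

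Ccnd1 was measured on all arrays of 4 amplified targets. With SMART from 10 ng its ratios were -0.22, -0.99, -0.85 and -0.87, all below 0, with a mean of -0.73 ± 0.35 (SD, n = 4), and it was called lower in OV (limma adjusted p = 0.0137). It was the only call among 4 members tested, beside 3.54% of all genes, and the call was lost without array 2, 3 or 4, with means between -0.70 and -0.65. With SM37 the ratios were -0.42, -0.26, -0.37 and -0.53, also below 0 on every array but not called at the LOD threshold (limma adjusted p = 9.39e-03). GA from 10 ng gave -0.41, -0.12, 0.09 and 0.00, on both sides of 0, with a mean of -0.11 ± 0.22 (SD, n = 4). GA from 10 pg gave -0.47, -0.80, -0.49 and -0.69, a mean of -0.61 ± 0.16 (SD, n = 4; limma adjusted p = 0.0513).

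The difference between amplified and unamplified ratios was tested on 8 arrays in limma, at an adjusted p under 0.05. All 6 such tests share the same unamplified arrays, and each array entered them as independent. For Ccnd1 the mean was -0.11 with GA from 10 ng against -1.72 unamplified, a difference of 1.61 ± 0.16 (SE; limma adjusted p = 4.40e-04), and 1 of 4 members passed, beside 21.4% of all genes. With SM37 the mean was -0.39 against -1.72, a difference of 1.33 ± 0.14 (SE; limma adjusted p = 7.74e-05), the only pass among 2 members, beside 37.9% of all genes. With SMART it was -0.73 against -1.72, a difference of 0.98 ± 0.18 (SE; limma adjusted p = 3.30e-03), beside 18.0% of all genes. In each case no amplified array reached as low as any unamplified one, and how many of all genes also lacked overlap was not counted. For GA from 10 pg the mean was -0.61 against -1.72, a difference of 1.11 ± 0.18 (SE; limma adjusted p = 1.91e-03), beside 35.9% of all genes. Ratios of all genes also differed in spread, with a median size of 0.114 with SMART and 0.226 unamplified. After arrays were scaled to a common median absolute deviation the SMART difference was 0.64 and the difference for GA from 10 pg 1.72, both still called.

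**Figure D2:**
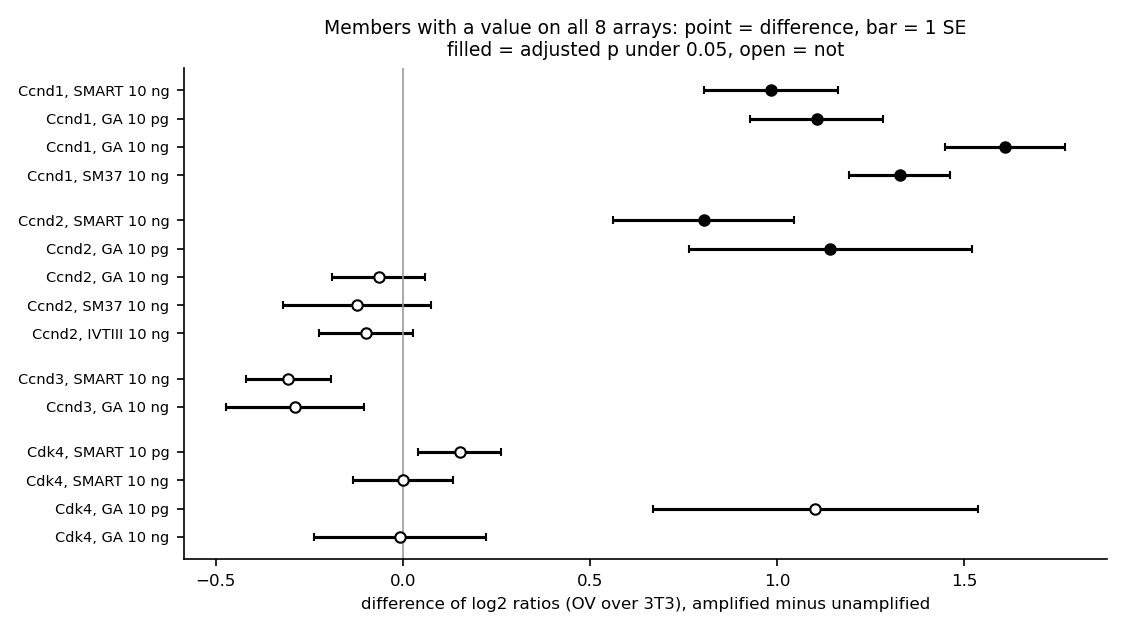
Difference of the mean log2 ratio (OV over 3T3), amplified minus unamplified, on the horizontal axis for each gene and target with a value on all 8 arrays. Points are differences, bars 1 SE, and filled points have an adjusted p under 0.05. Ccnd1 differed in the 3 targets shown from 10 ng, by 0.98 to 1.61, and in GA from 10 pg, whose arrays stood apart, by 1.11. Cdk4 did not pass in any.

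Ccnd2 lay below 0 on every array of IVTIII and of GA from 10 ng. The ratios were -0.29, -0.64, -0.18 and -0.52 with IVTIII, a mean of -0.41 ± 0.21 (SD, n = 4; limma adjusted p = 0.0116). One label of IVTIII array 1 names 3T3 for both channels, and the OV dye was read from its description. Without that array the mean was -0.45, also not called. Its labels give the IVTIII amount as 10 μg, where the methods give 10 ng. Ccnd2 was the only member tested there, not called by the LOD, beside 22.0% of all genes. In GA from 10 ng they were -0.40, -0.35, -0.57 and -0.17, a mean of -0.37 ± 0.16 (SD, n = 4; limma adjusted p = 0.0463). These means lay close to the unamplified -0.31, with differences of -0.10 ± 0.126 with IVTIII and -0.06 ± 0.125 with GA (SE). Neither passed, beside 48.1% of all genes that did with IVTIII. No member was called among 4 with GA from 10 ng, beside 8.23% of all genes. By the adjusted p alone Ccnd2 passed in both, beside 55.9% of all genes with IVTIII and 27.9% with GA from 10 ng. On the same GA values it missed that threshold, at 0.0512, when genes with a value under both dyes entered the fit.

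SM37 gave Ccnd2 ratios of -0.32, 0.18, -0.80 and -0.78. The second of these averages both probes, 0.81 for the RefSeq probe and -0.44 for the clone probe. No member was called among 2 tested with SM37, beside 13.0% of all genes, while Ccnd1 alone passed by the adjusted p, beside 43.0%.

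SMART from 10 pg gave Ccnd2 ratios of -0.20 and 0.01 on the 2 arrays with a value. SMART from 10 ng gave Ccnd2 ratios of -0.03, 0.41, 0.24 and 1.37, a mean of 0.50 ± 0.61 (SD, n = 4), with 3 of 4 arrays above 0. Against the unamplified mean of -0.31 the difference was 0.80 ± 0.24 (SE; limma adjusted p = 0.0395). This was the second difference called among 4 members, and 6 of the 8 fits that left out 1 array lost it. These were the fits without SMART array 2 or 3 and those without any unamplified array. In GA from 10 pg, Ccnd2 had 0.20 and -0.02 on arrays 1 and 2, and 1.60 and 1.56 on arrays 3 and 4. The mean of 0.84 was not called, and exceeded the unamplified mean of -0.31 by 1.14 ± 0.38 (SE; limma adjusted p = 0.0422). That call was lost with a dye term and in 6 of the 8 fits that left out 1 array, with values of 0.89 to 1.20 in these.

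Ccnd3 varied little with SMART from 10 ng, at 0.12, 0.13, 0.19 and 0.11, the smallest SD, 0.04, of any member over 4 arrays. All 4 values were above 0 but below the lowest unamplified value of 0.20, and the difference from unamplified cDNA of -0.31 ± 0.11 (SE) did not pass (limma adjusted p = 0.0882). With GA from 10 ng Ccnd3 had 0.51 and 0.42 on arrays 1 and 2, and -0.14 and -0.18 on arrays 3 and 4. With SM37 its 3 values, -0.15, -0.20 and -0.68, were all below 0, and 2 IVTIII arrays gave 0.21 and -0.15. From 10 pg it had 0.05, -0.18 and 0.22 with SMART, and 0.56, 1.75 and 1.79 with GA, on the 3 arrays with a value in each.

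Cdk4 means lay between 0.06 and 0.22 in every target with a value except GA from 10 pg, and none was called. With SMART from 10 pg its ratios were 0.22, 0.46, 0.00 and 0.20, with SMART from 10 ng 0.40, 0.10, -0.08 and -0.15, and with SM37 -0.28, 0.17 and 0.47 on 3 arrays. In GA from 10 ng they were 0.63 and 0.36 on arrays 1 and 2, against -0.49 and -0.27 on arrays 3 and 4. GA from 10 pg gave -0.05 and 0.78 on arrays 1 and 2, against 1.72 and 2.23 on arrays 3 and 4. No member was called at 10 pg, among 1 tested with SMART, beside 8.97% of all genes, and 3 with GA, beside 5.45%. Differences of Cdk4 from unamplified cDNA did not pass in any of 4 targets, among them SMART from 10 pg, where 34.8% of all genes passed, the largest being 1.10 ± 0.43 (SE) with GA from 10 pg (limma adjusted p = 0.0757).

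Arrays 1 and 2, and arrays 3 and 4, are the likely dye-swap pairs, which the labels do not state. With GA from 10 ng the gap between the means of the pairs exceeded the mean gap within them for Ccnd1, Ccnd3 and Cdk4, and for 56% of all genes. Pair means of Cdk4 were 0.50 and -0.38 and those of Ccnd3 0.46 and -0.16. With GA from 10 pg it did so for Ccnd2 and Cdk4 of 3 members, and for 61.6% of all genes, with pair means of 0.09 and 1.58 for Ccnd2. In unamplified cDNA the gap between pairs exceeded that within them for 4 of 5 members, beside 34% of all genes, though the largest, for Ccnd1, was 0.33.

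Neither Cdk6 in any target nor Rb1 outside unamplified cDNA had a value on all 4 arrays. In fits that kept genes with a value under both dyes neither was called, Cdk6 on 2 arrays each of unamplified cDNA (limma adjusted p = 0.881) and IVTIII (0.373), and Rb1 on 3 of SMART from 10 ng (0.532). Cdk6 had -0.81 and 0.21 on 2 IVTIII arrays, -0.29 on 1 SMART array from 10 pg, 0.93 on 1 GA array from 10 pg and -0.49 on 1 GA array from 10 ng, and none with SM37 or with SMART from 10 ng. Rb1 had -0.16, -0.19 and -0.03 with SMART from 10 ng, all below 0 as in unamplified cDNA. It had 0.40 and -0.08 with GA from 10 ng, -0.24 and 0.22 with GA from 10 pg, -0.24 on 1 SM37 array and -0.12 on 1 IVTIII array.

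The 10 pg and 10 ng targets were compared directly where a gene had a value on all 8 arrays. They differed both in the RNA reverse transcribed and in the later dilution, and these cannot be told apart. For Cdk4 with SMART the mean was 0.22 from 10 pg and 0.07 from 10 ng, a difference of 0.15 ± 0.15 (SE; limma adjusted p = 0.830), and 0.0932% of all genes passed. With GA, 1 of 3 members passed, beside 28.7% of all genes. It was Ccnd2, at 0.84 from 10 pg and -0.37 from 10 ng, a difference of 1.21 ± 0.38 (SE; limma adjusted p = 0.0414). This call was lost in 6 of the 8 fits without 1 array, namely without array 3 or 4 from 10 pg or any array from 10 ng. Ccnd1 moved the other way, at -0.61 from 10 pg and -0.11 from 10 ng, a difference of -0.50 ± 0.20 (SE) that did not pass (limma adjusted p = 0.0843).

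Replicas of OV RNA were compared on 2 arrays per group, turned to replica 1 over replica 2, and gave no test. Unamplified replicas, on 1 array, lay at -0.14 for Ccnd1 and between 0.02 and 0.06 for the other 5 members. Across the amplified groups 34 member ratios had both arrays, 18 of them with opposite signs, beside 20% to 62% of all genes per group, and 2 exceeded 2-fold. The count was also 18 with Ccnd2 taken from the clone probe alone, which turned it to opposite signs in GA at 10 ng and to 1 sign in SMART at 1 ng. The 2 ratios over 2-fold came from GA at 10 pg, where Ccnd1 had -1.64 and -1.78 and Ccnd2 had 2.68 and 1.66. These ratios between replicas of 1 RNA reached the size of the Ccnd1 ratio between the lines in unamplified cDNA, and 11% of all genes exceeded 2-fold there. On the same arrays Ccnd3, at 0.17 and 0.22, and Cdk4, at 0.03 and 0.06, stayed near 0.

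At 100 pg with GA, Ccnd1 had -0.28 and -0.95 and Ccnd2 -0.34 and -1.07, so that Ccnd2 was below 0 where it was above 0 at 10 pg. At 1 ng Ccnd1 had no value, Ccnd2 had -0.04 and 0.03, and Ccnd3 had 0.28 and 0.22. At 10 ng Ccnd2 had -0.48 and -0.32, where the second averages -0.97 for the RefSeq probe and 0.33 for the clone probe, so that on the clone probe alone the arrays opposed each other. Cdk4 had -0.42 and 0.81, which also oppose each other. With SMART the members' median size was 0.17 at 10 pg, 0.16 at 100 pg, 0.0088 at 1 ng and 0.085 at 10 ng, beside 0.18, 0.099, 0.043 and 0.086 over all genes. The largest SMART value belonged to Cdk4 at 10 pg, with 1.00 and 0.47. The labels describe both SMART arrays titled 1 ng as 100 pg, so that this amount is uncertain.

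**Figure D3:**
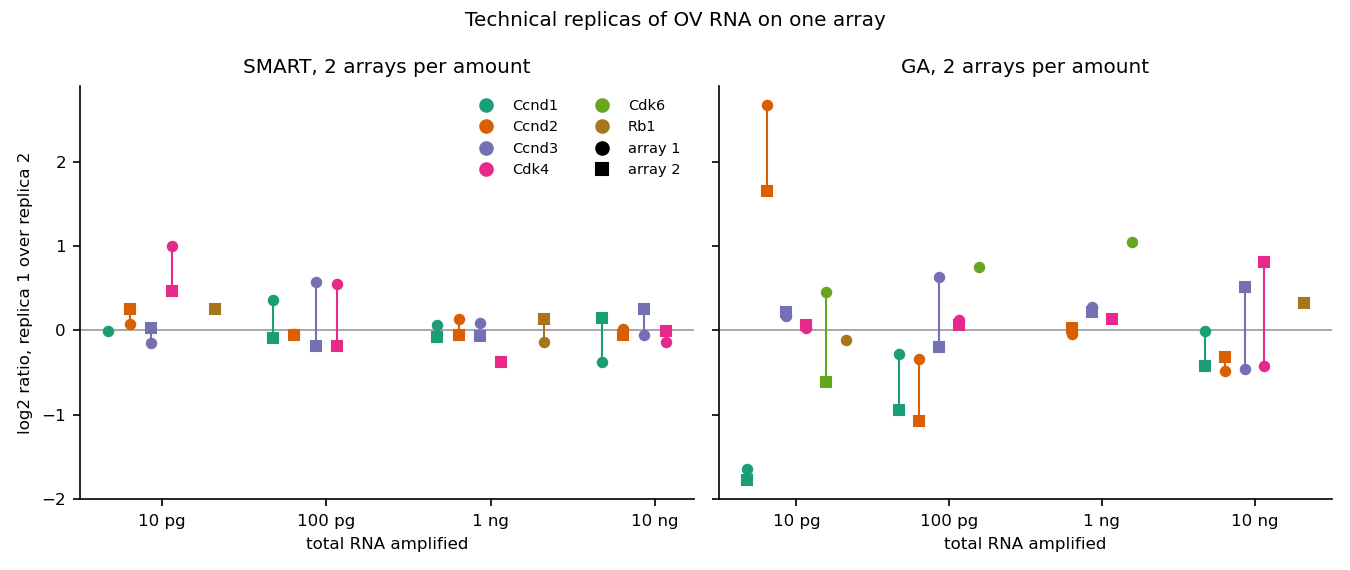
Log2 ratios of replica 1 over replica 2 of OV RNA (vertical axis) by the amount of total RNA taken for reverse transcription (horizontal axis), for SMART and GA. Amounts above 10 pg were diluted before the last PCR cycles. Circles and squares are arrays 1 and 2 of a group, joined by a line, and colors mark genes. Ccnd1 and Ccnd2 with GA at 10 pg lie farthest from 0, on opposite sides.

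Genes around the D-type cyclins were read from 6 further lists, chosen with results of these data known. In unamplified cDNA 8.81% of all genes were higher in OV and 7.30% lower at the LOD threshold, and the median ratio of all genes was -0.0038. All 4 of the 7 inhibitors of cyclin-dependent kinases with a value on every array were called. Cdkn2a (1.58 ± 0.11; limma adjusted p = 7.39e-05) and Cdkn2b (1.04 ± 0.35), INK4 inhibitors of Cdk4 and Cdk6, were higher. Cdkn1a (-2.46 ± 0.65; limma adjusted p = 6.20e-04) and Cdkn2c (-0.68 ± 0.10), another INK4 inhibitor, were lower (SD, n = 4 each).

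Downstream of the kinases, 6 of 19 tested E2F target genes were called lower in OV and none higher, with a list median of -0.51. The 4 largest were Prim1 (-1.38 ± 0.30), the DNA primase subunit, Cdc6 (-0.85 ± 0.21), which loads the replicative helicase, the helicase subunit Mcm6 (-0.69 ± 0.14) and Ezh2 (-0.60 ± 0.18), a histone methyltransferase (SD, n = 4 each). Of 9 tested pocket proteins and E2F factors, E2f5, a repressive E2F, was called lower at -0.65 ± 0.22 (SD, n = 4) and none higher. The Rb1 relatives Rbl1 and Rbl2, at -0.53 and 0.57, were not called.

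Among 17 tested other cyclins and kinases 6 were called lower and 1 higher, with a median of -0.45. Ccng1 (-1.44 ± 0.47), a p53 target, Cdk1 (-1.39 ± 0.26), the mitotic kinase, its S and G2 partner Ccna2 (-1.32 ± 0.18) and the F-box cyclin Ccnf (-0.88 ± 0.27) were lower, and the mitotic cyclin Ccnb2 was higher at 0.57 ± 0.14 (SD, n = 4 each). Mitogen signaling to cyclin D was divided, with 5 of 16 genes higher and 4 lower and a median of 0.04. Stat3 (1.64 ± 0.21), Junb (1.59 ± 0.25), Ets2 (1.20 ± 0.47) and Fos (0.90 ± 0.33), all transcription factors, were higher. Myc (-0.93 ± 0.15), Jun (-0.92 ± 0.12), Fosl1 (-0.81 ± 0.15) and Egr1 (-0.53 ± 0.13), transcription factors of the same response, were lower (SD, n = 4 each). Of 13 genes of cyclin D turnover and cofactors, the kinase subunit Cks2 (-1.22 ± 0.25) and the F-box protein Skp2 (-0.48 ± 0.08) were lower and none was higher.

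**Figure D4:**
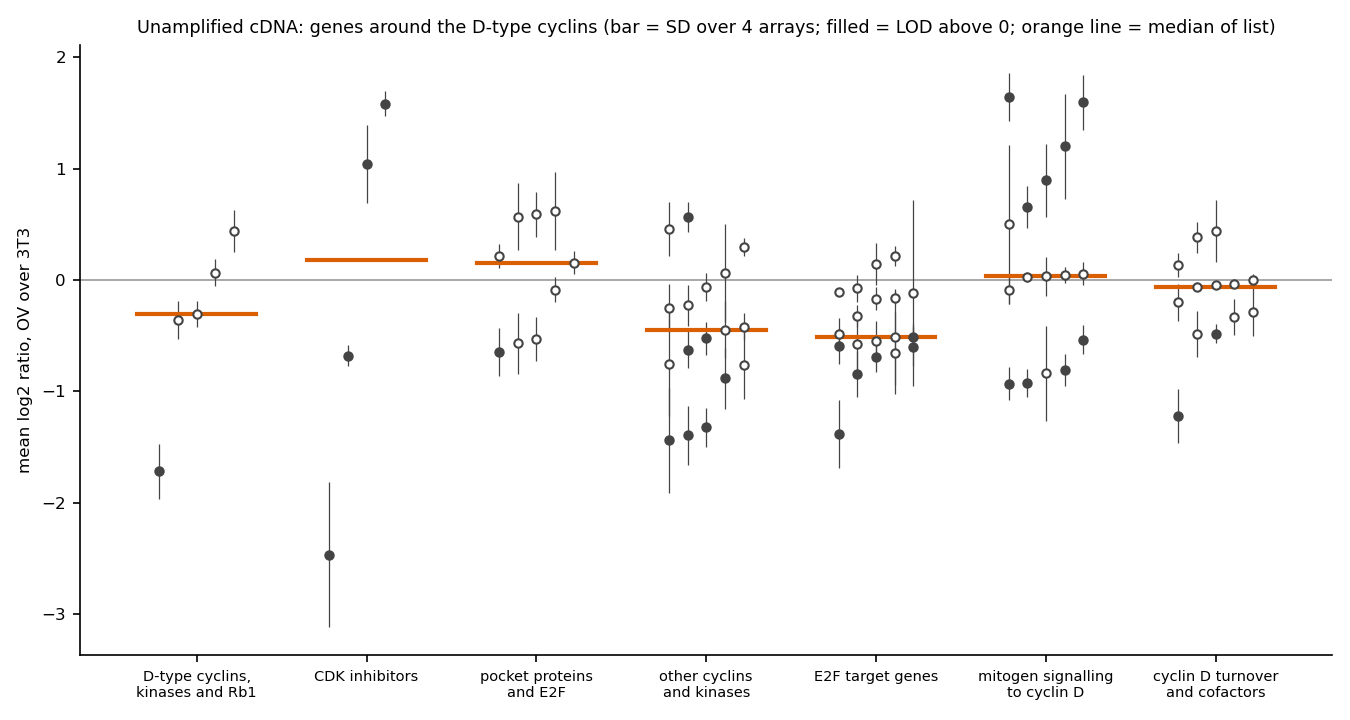
Mean log2 ratio of OV over 3T3 in unamplified cDNA (vertical axis) for every gene of each list with a value on all 4 arrays (horizontal axis, lists). Bars are SD over 4 arrays, filled points were called at an LOD above 0, and orange lines are list medians. E2F targets and other cyclins have medians of -0.51 and -0.45, and the called kinase inhibitors lie on both sides of 0.

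In amplified targets 8 to 52 genes of the 6 lists had a value on all arrays, against 78 in unamplified cDNA, where 37.2% of them were called. With IVTIII 12 of 38 list genes were called (31.6%), beside 22.0% of all genes. The counts were 5 of 51 with GA from 10 ng (9.8%, beside 8.23%), 7 of 48 with SM37 (14.6%, beside 13.0%), 1 of 52 with SMART from 10 ng (1.92%, beside 3.54%) and 2 of 8 with SMART from 10 pg (beside 8.97%). All 4 mitogen signaling genes tested with IVTIII were lower in OV, namely Fosl1 (-2.21 ± 0.22), Myc (-1.26 ± 0.15), the kinase Map2k1 (-0.92 ± 0.16) and the kinase Braf (-0.73 ± 0.07). So were 2 of 7 pocket proteins and E2F factors, E2f1 (-1.36 ± 0.21) and Rbl1 (-0.74 ± 0.11), and 1 of 9 turnover genes, Fbxo4 (-0.70 ± 0.10; SD, n = 4 each). In unamplified cDNA Fosl1 and Myc were also called lower, while Map2k1 (-0.09) and Braf (0.03) were not called. E2f1 (-0.57), Rbl1 (-0.53) and Fbxo4 (-0.49) lay below 0 in unamplified cDNA without a call. Cdkn1a was called lower in all 4 where it was tested, at -0.57 ± 0.21 with SMART from 10 pg, -0.65 ± 0.23 with SMART from 10 ng, -1.12 ± 0.15 with GA from 10 ng and -0.59 ± 0.05 with SM37 (SD, n = 4 each). Myc was also called lower with GA from 10 ng (-0.83 ± 0.18) and SM37 (-1.27 ± 0.41), and with SMART from 10 ng, at -0.52 ± 0.30, it was below 0 on all 4 arrays but not called (SD, n = 4 each). Among E2F targets none of 18 was called with SMART from 10 ng, 1 of 16, Mcm4, was lower with GA from 10 ng, and 2 of 16, Cdt1 and Prim1, with SM37. With IVTIII 2 of 12 were higher, Rrm1 and Ung, and 3 lower, Orc1, Pola1 and Rfc3. In unamplified cDNA Rrm1 (0.21), Ung (-0.17), Orc1 (-0.32) and Pola1 (-0.52) were not called, and Rfc3 was not tested. None of the 32 list genes with a value on all GA arrays from 10 pg was called, beside 5.45% of all genes.

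The promoter of Cdk4 is shown because Cdk4 is a textbook target of Myc, a factor that binds the E-box CACGTG, and because the ratios of both genes were measured here. RefSeq's sequence table held promoters for 3 of the 6 members. The 250 bases before the start of Cdk4, on the plus strand of GRCm38.p6 at chr10:127063285-127063534, are printed 5′ to 3′ with each CACGTG, which reads the same on both strands, in capitals.
Cdk4: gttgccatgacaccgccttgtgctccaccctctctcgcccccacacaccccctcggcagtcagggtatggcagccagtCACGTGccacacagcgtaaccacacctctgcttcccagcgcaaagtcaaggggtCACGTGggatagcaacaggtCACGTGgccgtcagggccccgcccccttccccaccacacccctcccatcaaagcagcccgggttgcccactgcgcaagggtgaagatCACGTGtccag
The motif occurred 4 times, its first base lying 172, 118, 98 and 11 bases before the start. At least 1 copy was found in 6.02% of 32851 promoters of the same length and at least as many as in Cdk4 in 0.0213%. Cdk6 held 1 copy and both Ccnd3 starts 0. In unamplified cDNA the Myc ratio was -0.93 ± 0.15 and the Cdk4 ratio 0.07 ± 0.12 (SD, n = 4 each), and the arrays do not measure binding.

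Across arrays of OV against 3T3, 4 members had at least 20 values. Each was set beside the other genes with a value on at least 20 of the same arrays, clone names left out. These correlations describe arrays that share 2 RNAs and 7 kinds of target, and they have no test. Nearest to Ccnd1 were Sgk1 (r = 0.908), a serum- and glucocorticoid-induced kinase, the translation initiation subunit Eif3e (0.889) and the scaffold gene Ahnak (0.866), over 20 arrays each and among 2137 genes. Like Ccnd1, all had their lowest mean in unamplified cDNA, Sgk1 at -1.63 ± 0.50, Eif3e at -1.18 ± 0.14 and Ahnak at -0.79 ± 0.30 (SD, n = 4 each). Their r without the unamplified arrays was not computed. Nearest to Ccnd2 were Anxa8 (0.933, 23 arrays), Zfp326 (0.892, 21 arrays) and Mrps22 (0.884, 20 arrays). Ccnd3 lay nearest to Pef1 (0.929, 20 arrays), Gatad2a (0.924, 21 arrays) and Anxa8 (0.923, 20 arrays), and Cdk4 to Phgdh (0.938, 22 arrays), Skp1 (0.936, 20 arrays) and Snrpa1 (0.923, 21 arrays). All 8 of these neighbors of Ccnd2, Ccnd3 and Cdk4 had their highest mean with GA from 10 pg, between 1.03 and 2.02. Without the GA arrays from 10 pg, a choice made after seeing the data, r was 0.311 to 0.665 for the neighbors of Ccnd2, 0.706 to 0.836 for those of Ccnd3, 0.565 to 0.691 for those of Cdk4 and 0.915 to 0.931 for those of Ccnd1, over 16 to 20 arrays. Among members r was 0.812 for Ccnd3 with Cdk4, 0.706 for Ccnd3 with Ccnd2 and 0.594 for Ccnd2 with Cdk4, over 21 arrays each. Without the GA arrays from 10 pg these were 0.208, 0.191 and -0.192, over 18, 18 and 17 arrays, so that the likeness among these 3 members rested on those arrays. For Ccnd1 with Ccnd2 r was -0.012 over 20 arrays and -0.115 over the 16 others than GA from 10 pg.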

How the data were processed

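Log2 ratios of both dyes were deposited for each array. The authors scanned with GenePix Pro 4.0, subtracted background and normalized within arrays by print-tip lowess in limma, while why values are missing is not given in the sources used here. Of 21997 probes, 231 controls were left out, and 16632 with 1 gene symbol were averaged to 15063 genes. Groups and dyes followed the labels. Amounts followed the titles where these give one and the study's methods otherwise, also where a description gave another amount or unit. Genes with a value on all arrays entered limma 3.58.1 (R 4.3.3, lmFit and eBayes, prior proportion 0.01), with calls at an LOD above 0, as the study's methods name, and at a Benjamini-Hochberg adjusted p under 0.05 for differences between targets. The fits were tested on simulated data. The members and gene lists were chosen with earlier results of these data known. All 6 members were named, and of each list up to 4 genes called in each direction in unamplified cDNA, the largest in size. Genes called in amplified targets and the relatives of Rb1 were named after their values were seen. The 3 genes of highest Pearson r with a member, clone names left out, were named as its neighbors. Alternatives covered missing values, scaling, dye and each array left out, and for ratios within a target also thresholds, dye-swap pairs and probes. Cdk4's promoter came from RefSeq. No columns were unmapped. Figures used matplotlib 3.10.9 in Python 3.11.15.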

Additional observations from a re-analysis of the deposited data

Results flagged for a closer look

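No array lay far from the other 3 in any of the 20 groups of 4 member values examined, where chance gives about 1 in 20. Of 19 differences between targets tested for members, 7 passed, and 4 of the 13 that do not use the GA arrays from 10 pg. Over all genes 18.0% to 48.1% passed in differences from unamplified cDNA, 28.7% in GA from 10 pg minus 10 ng and 0.0932% in SMART from 10 pg minus 10 ng. The OV over 3T3 log2 ratio of Ccnd1 was less negative than the unamplified mean of -1.72 in the targets that passed. The differences were 1.61 with GA from 10 ng, 0.98 with SMART from 10 ng, 1.33 with SM37 and 1.11 with GA from 10 pg. For Ccnd2 the ratio exceeded the unamplified mean of -0.31 by 0.80 with SMART from 10 ng and by 1.14 with GA from 10 pg. It was 1.21 higher with GA from 10 pg than from 10 ng. The 6 differences from unamplified cDNA share its 4 arrays.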

How the results depend on the processing

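Of 507 alternative values for members, 457 kept their direction and side of the threshold, 26 lost a call, 10 gained one and 14 changed sign without being called. The Ccnd1 ratio in unamplified cDNA and its differences from unamplified cDNA, 3 from 10 ng and 1 with GA from 10 pg, were called under every alternative run. No alternative for the differences joined the likely dye-swap pairs, so that their arrays always counted as independent. Over all genes the consensus correlation within pairs was 0.33 with GA from 10 ng and 0.45 with GA from 10 pg. It was 0.17 with SM37, -0.10 with SMART from 10 ng and -0.21 in unamplified cDNA. At an adjusted p under 0.05 in place of the LOD, members called were 4 in unamplified cDNA and 1 each with IVTIII, GA from 10 ng and SM37. With dye-swap pairs averaged 2 were called with SMART from 10 ng, and without 1 array 0 to 1. Differences from unamplified cDNA were 1 to 2 with SMART and 1 to 3 with GA from 10 pg without 1 array, 1 with SMART and 2 with SM37 when genes with a value on at least 2 arrays of each target were kept, and 1 with GA from 10 pg when a dye term was fitted. For GA, 10 pg minus 10 ng, 0 to 2 members were called without 1 array, and 0 with a dye term. With the hybridization number as a replicate block 0 were called there, the Ccnd2 difference staying at 1.21. Arrays share only that number: correlations of same-numbered deviations ran from -0.2278 to 0.2462. The block changed no other call of a member. Reversed values were small: Cdk4 lay between -0.13 and 0.24 with GA from 10 ng and between -0.046 and 0.14 with SMART from 10 ng without 1 array, its differences from unamplified cDNA between -0.20 and 0.18 and between -0.11 and 0.074, and that of Ccnd2 with GA from 10 ng between -0.13 and 0.0004. Centering gave -0.0018 for Cdk4 with SMART, and scaling 0.044 for Ccnd2 with IVTIII. The cause of these changes was not tested. Calls over all genes in unamplified cDNA were 1640, 4973 by the adjusted p and 788 without array 1. With SMART from 10 ng they were 262, and 81 to 523 over the alternatives. Differences from unamplified cDNA called over all genes ran from 617 to 1517 with SMART from 10 ng and from 1473 to 2785 with SM37. They ran from 947 to 3292 with GA from 10 pg. For GA, 10 pg minus 10 ng, the all-gene counts were 533 to 1719. The median size of member ratios between OV replicas was 0.124, and 0.214 and 0.194 from array 1 or 2 alone.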

Other observations

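Neural stem cell replicas were outside the comparisons above. By the methods they were amplified from parts of the same RNA, isolated from pooled cells of embryonic mouse neocortex. With GA, replica 1 over replica 2 was 0.45 and 0.62 for Ccnd1, -0.19 and 0.08 for Ccnd2, and 0.20 and 0.35 for Cdk4 on arrays 1 and 2, while Rb1 had -0.08 and 0.97. With SMART, Ccnd2 had 0.10 and 0.03 and Cdk4 -0.20 and -0.46, and Ccnd1, Ccnd3, Cdk6 and Rb1 had no value. In OV targets hybridized against themselves, 1 array each, the members with a value lay between 0.03 and 0.08 in unamplified cDNA and between -0.16 and 0.22 with GA, and with IVTIII only Cdk6 had a value, of -0.26.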
